A study of Mus musculus with 16 samples.

Results

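Cadherins are calcium-dependent adhesion proteins of the cell surface. The classical cadherins bind catenins inside the cell and hold opposing membranes together, and type II classical cadherins are known for matching particular neurons with one another. Protocadherins form the larger branch of the superfamily: the non-clustered delta protocadherins act in axon growth and synapse turnover, while the clustered alpha, beta and gamma genes give single neurons combinations of isoforms that serve self-recognition of dendrites. In the hippocampus, N-cadherin (Cdh2) is a core component of excitatory synapses.

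All gene symbols made of Cdh and a number, or starting with Pcdh, were taken as members, which gave 91 of the 48397 symbols in the count tables. They comprised 23 cadherins, 12 non-clustered protocadherins and 56 clustered protocadherins. A total of 82 members had at least 10 counts in at least 4 libraries and were tested among 17331 genes that met the same condition. Measurements came from RNA sequencing of primary hippocampal neurons of newborn wild type CD1 mice, in 4 groups of 4 libraries with replicate numbers 1 to 4. The cultures received, at 10 and 13 days in vitro (DIV), 10-fold concentrated medium conditioned by immortalized astrocytes, and RNA was taken at 17 DIV. The astrocytes were homozygous for human APOE ε2 (apoE2), ε3 (apoE3) or ε4 (apoE4), or were Apoe-/- (control). All neuronal cultures had been treated with AraC to limit dividing glia, and all astrocyte media contained 25-hydroxycholesterol. Each apoE isoform came from its own astrocyte line, so the apoE isoform and the line cannot be told apart. Where apoE levels differed between batches, the authors evened them out with concentrated medium of the Apoe-/- line. Libraries held between 14087723 and 34248172 counts assigned to genes, and the members together took 2104 to 3318 CPM (counts scaled to a common library size). The libraries apoE2 replicate 4 and apoE4 replicate 2 stood apart and held the most counts on genes. Of their deposited counts, 38.4% and 38.6% were not assigned to a single gene, against 51.4% to 73.8% in the others. These unassigned counts included ambiguous ones, which were 4.64% to 22.66% of the gene and ambiguous counts together. The marker sums below show that the cultures held glia besides neurons: 10 astrocyte markers summed to between 1326 and 6728 CPM, and 10 excitatory neuron markers to between 929 and 3606 CPM. In such mixed cultures, fewer cells of a type and less RNA per cell cannot be told apart.

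Levels between genes were compared as mean CPM per kb of exon sequence that no other annotated gene overlaps. Pcdh8 (arcadlin, an activity-regulated protocadherin that binds N-cadherin) had the highest level, at 42.7 CPM per kb and the 94.6th percentile of all tested genes. Next came Pcdh20 at 31.3, the delta-1 protocadherin Pcdh1 at 29.8, N-cadherin at 27.3 and the delta-1 protocadherin Pcdh7 at 21.5 CPM per kb. Pcdh9 stood at 17.5, Pcdh17 at 12.8 and Cdh13 (T-cadherin, anchored in the membrane by a lipid) at 10.9 CPM per kb. Neighbours in this order overlapped across libraries: Pcdh8 ranged from 17.0 to 87.8 and Pcdh20 from 13.3 to 45.4 CPM per kb. N-cadherin was the steadiest of the leading members, between 22.9 and 32.7 CPM per kb over the 16 libraries. Among the 12 tested type II cadherins the levels ran from 0.191 CPM per kb for Cdh6 to 10.5 for Cdh11, with a median of 2.07.

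**Figure D1:**
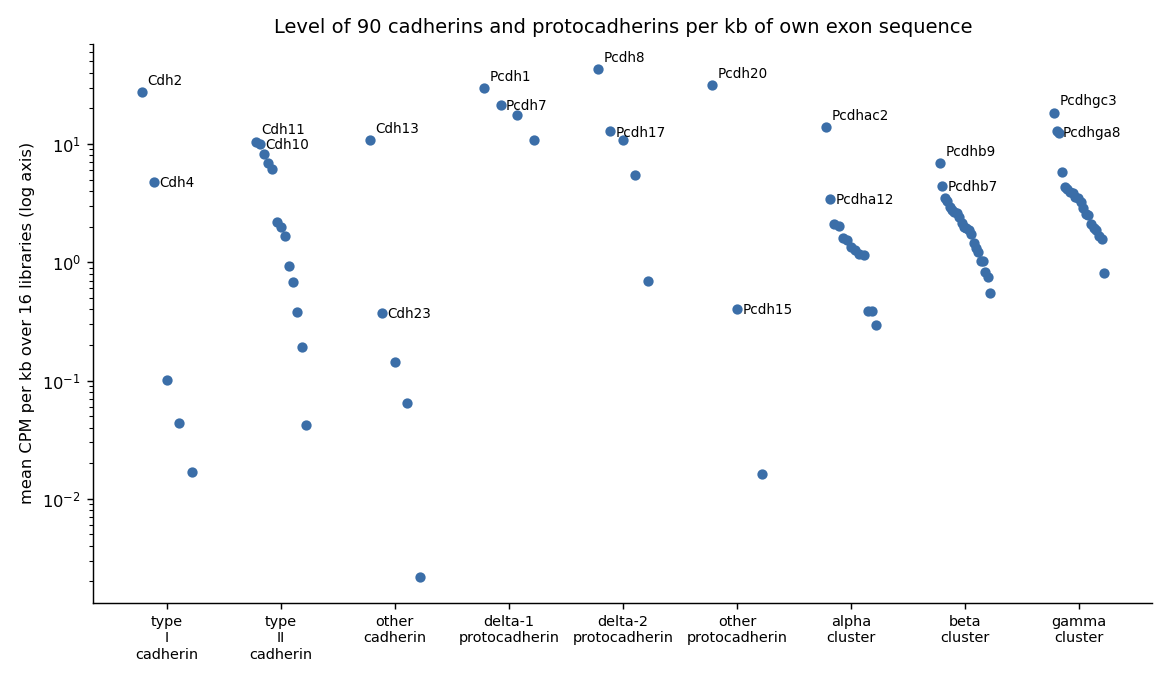
Mean level of each member over the 16 libraries, in CPM per kb of own exon sequence on a log axis, by family; each point is 1 gene and the highest members of each family are named. Pcdh8, Pcdh20, Pcdh1 and Cdh2 lead, and the beta genes lie between 0.555 and 6.88.

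The clustered genes ranged widely. The 22 beta genes had a median of 1.98 CPM per kb, from 0.555 for Pcdhb1 to 6.88 for Pcdhb9. The 11 alternate alpha genes had a median of 1.34, and the 18 gamma A and B genes with exon bases of their own a median of 3.06 CPM per kb. The C-type isoforms, which single neurons express more uniformly than the other isoforms, included Pcdhgc3 at 18.4, Pcdhac2 at 13.95 and Pcdhgc5 at 12.4 CPM per kb, while Pcdhac1 stood at 1.16 CPM per kb. All 13 alpha and all 21 gamma genes share exon bases with neighbours, so reads in their shared 3′ exons may be missing from their counts. The beta genes have no such shared exons, but 3 of the 22 overlap another gene: Pcdhb21 and Pcdhb22 overlap each other, and Pcdhb12 overlaps Gm37446 on the opposite strand.

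The 9 members below the filter were Cdh1, Cdh3, Cdh5, Cdh15, Cdh16, Cdh17, Pcdh12, Pcdha4 and Pcdhga10. E-cadherin (Cdh1), a defining adhesion protein of epithelia, had 24 counts over all 16 libraries, and VE-cadherin (Cdh5), that of endothelium, had 54. Cdh16 had 3 counts and Pcdhga10 had 0, and these were the members with at most 10 counts. For Pcdhga10 the shared share of exon bases was 100% and for Pcdha4, with 52 counts, it was 93.0%, so their low counts do not measure their transcription.

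The first question was which members differed when neurons received apoE lipoproteins in place of control medium. With the groups alone in the model, edgeR's quasi-likelihood test with Benjamini-Hochberg adjustment called 0 of 82 members at an adjusted p under 0.05 with apoE2, apoE3 or apoE4 medium, where 0%, 0.00577% and 0.196% of all tested genes were called. DESeq2 also called 0 members in each, and its share over all tested genes was not worked out. At an unadjusted p under 0.05 there were 6 members with apoE2 (2.74% of all tested genes), 10 with apoE3 (6.43%) and 1 with apoE4 (3.27%). The study's cutoffs, a 2-fold or larger difference with an unadjusted p under 0.05, were applied here to edgeR's p in place of the p of the study's own test. They were met by 2 members with apoE2 (0.715% of all tested genes), 3 with apoE3 (2.07%) and 0 with apoE4 (1.17%). Cdh9 and Cdh23 were lower with both apoE2 and apoE3, and Cdh6 was higher with apoE3.

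Libraries of replicates 2 to 4 deviated together by number, and much of the spread within groups lay between numbers. For replicate 1, the correlations of deviations from group means, 0.346 to 0.538, lay within those between different numbers, -0.73 to 0.556. The methods do not say that libraries of 1 number share a culture. With the replicate number added to the model as a block, 4 of 82 members were called at an adjusted p under 0.05 with apoE2 (1.72% of all tested genes), 15 with apoE3 (11.4%) and 2 with apoE4 (3.25%). With apoE2, Cdh9, Cdh23 and Pcdh8 were lower and Pcdh10 was higher. With apoE3, 8 members were higher (Cdh6, Cdh7, Cdh13, Cdh19, Cdh22, Pcdh7, Pcdh10 and Pcdhgc3) and 7 were lower (Cdh9, Cdh11, Cdh23, Pcdh8, Pcdh19, Pcdh20 and Pcdhga8). With apoE4, Cdh19 and Pcdh18 were higher. The study's fold and p criterion was met in the blocked model by 2 members with apoE2 (1.57% of all tested genes), 5 with apoE3 (4.85%) and 1 with apoE4 (2.5%). The 3 comparisons share their control libraries, so their values are given side by side. In the fits that left out 1 library, members alone were counted, and the share of all tested genes called was not worked out. Without apoE2 replicate 4, a library that stood apart, the blocked counts at an adjusted p under 0.05 were 7 members with apoE2, 16 with apoE3 and 4 with apoE4. Without apoE4 replicate 2, the other such library, they were 5, 13 and 2. Over the 16 fits that each left out 1 library, the blocked counts ran from 1 to 7 with apoE2, from 8 to 16 with apoE3 and from 0 to 4 with apoE4. Without control replicate 1 they were 1, 8 and 0, the lowest of each. With apoE2 the count was also 2 without apoE2 replicate 2. With apoE4 it was also 0 without replicate 4 of control or of apoE4, 1 without control replicate 3 or apoE4 replicate 1 or 3, and 4 without apoE3 replicate 4. Called without further words means called in the blocked model.

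**Figure D2:**
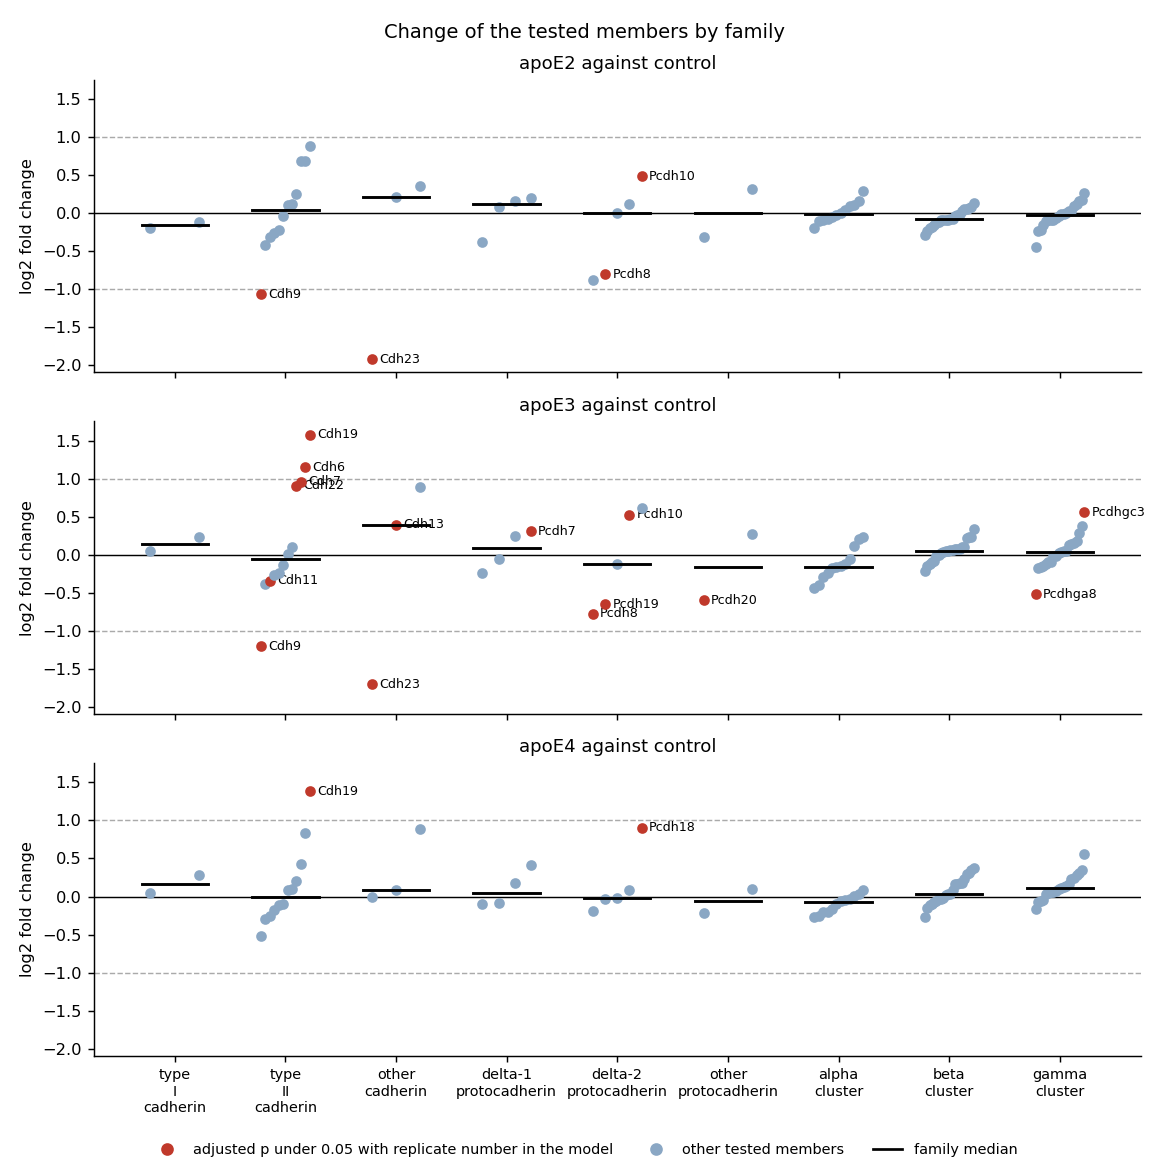
Log2 fold change of each of the 82 tested members against control, by family, in the model with the groups alone, one panel per apoE medium; black bars are family medians, dashed lines mark a 2-fold change, and red points are members called at an adjusted p under 0.05 with the replicate number in the model. The clustered families centre near 0, and Cdh9 and Cdh23 lie below the lower dashed line with apoE2 and apoE3.

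Cdh9, a type II cadherin known for its part in synapses between dentate granule cells and CA3 neurons, was lower with apoE2 and apoE3. In replicates 1 to 4 it stood at 38.6, 39.0, 39.4 and 24.1 CPM in control, 19.2, 16.8, 19.6 and 11.98 CPM with apoE2, 9.85, 24.5, 20.2 and 6.33 CPM with apoE3, and 23.8, 23.3, 31.5 and 19.9 CPM with apoE4. The apoE2 values lay below every control value, the apoE3 values overlapped the control ones by replicate 2 alone, and within each replicate number all 3 media gave less than control. The log2 fold change was -1.07 ± 0.34 (SE) with apoE2, a 2.09-fold lower level, and -1.20 ± 0.34 with apoE3, 2.30-fold lower, with edgeR adjusted p-values of 1.00 and 0.52. In the blocked model the adjusted p was 0.0182 with apoE2 and 0.0022 with apoE3. The apoE3 call held when any 1 library was left out, and the apoE2 call was lost without control replicate 1 or 4 or apoE2 replicate 2 or 3, with adjusted p-values of up to 0.102. With the groups alone, the fold of at least 2 was lost without apoE2 replicate 4 (-0.94) for apoE2 and without apoE3 replicate 4 (-0.95) for apoE3. With apoE4 the log2 fold change was -0.52 ± 0.33 and the blocked adjusted p was 0.229. An antisense transcript, Gm49127, covers 6.3% of the exon bases of Cdh9, and strand use in counting was not stated.

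Cdh23, the cadherin of the tip links of sensory hair cells, had the largest fold changes of the called members and a low level, 0.375 CPM per kb. It stood at 16.5, 5.58, 12.8 and 4.62 CPM in control, 3.81, 2.06, 3.25 and 1.43 CPM with apoE2, 3.66, 2.49, 5.25 and 0.66 CPM with apoE3, and 10.7, 5.66, 18.1 and 5.06 CPM with apoE4. Every apoE2 value was below every control and every apoE4 value, and the apoE3 values overlapped both by replicate 3. The log2 fold change was -1.92 ± 0.60 with apoE2 and -1.70 ± 0.60 with apoE3, or 3.78-fold and 3.26-fold lower, with edgeR adjusted p-values of 1.00 and 0.732 and, in the blocked model, 0.00199 and 0.000642. Both blocked calls and both 2-fold criteria held when any 1 of the 16 libraries was left out. With apoE4 it was -0.004 ± 0.573. Pcdh15, the partner of Cdh23 in the tip link, had log2 fold changes of 0.32 ± 0.32 with apoE2, 0.28 ± 0.32 with apoE3 and 0.10 ± 0.32 with apoE4, none of them called in either model.

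Pcdh8, the member with the highest level per kb, followed the same order of groups. It stood at 222, 203, 307 and 160.3 CPM in control, 110.3, 127, 186 and 90.3 CPM with apoE2, 102, 174, 176 and 69.9 CPM with apoE3, and 200.1, 169, 360.2 and 149 CPM with apoE4. The groups overlapped, but within each replicate number apoE2 and apoE3 gave less than control. The log2 fold change was -0.80 ± 0.34 with apoE2 and -0.78 ± 0.34 with apoE3, not called with the groups alone (edgeR adjusted p of 1.00 and 0.763), with blocked adjusted p-values of 0.0127 and 0.00334. The call with apoE2 was lost without control replicate 1 or apoE2 replicate 2 or 3 (adjusted p of up to 0.0739), and that with apoE3 held without any 1 library. With apoE4 it was -0.02 ± 0.34. Another transcript, Gm9748, overlaps 9.6% of the exon bases of Pcdh8.

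Pcdh10, a delta-2 protocadherin known for its part in activity-dependent synapse elimination, moved the other way. It stood at 119.7, 138, 155 and 137 CPM in control, 159, 190.5, 220.4 and 199 CPM with apoE2, 191, 199.8, 231 and 169 CPM with apoE3, and 148, 145, 159 and 131 CPM with apoE4. The apoE2 and apoE3 values all lay above the control and the apoE4 values, and the control and apoE4 values overlapped. Its log2 fold changes were 0.49 ± 0.12 for apoE2, 0.53 ± 0.12 for apoE3 and 0.09 ± 0.12 for apoE4. The first 2 had edgeR adjusted p-values of 0.627 and 0.313, and 0.0083 and 0.00128 in the blocked model. The call with apoE3 held without any 1 library, and that with apoE2 was lost without control replicate 1 alone (adjusted p of 0.0552). The transcript 1700027H10Rik overlaps 1.0% of the exon bases of Pcdh10.

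**Figure D3:**
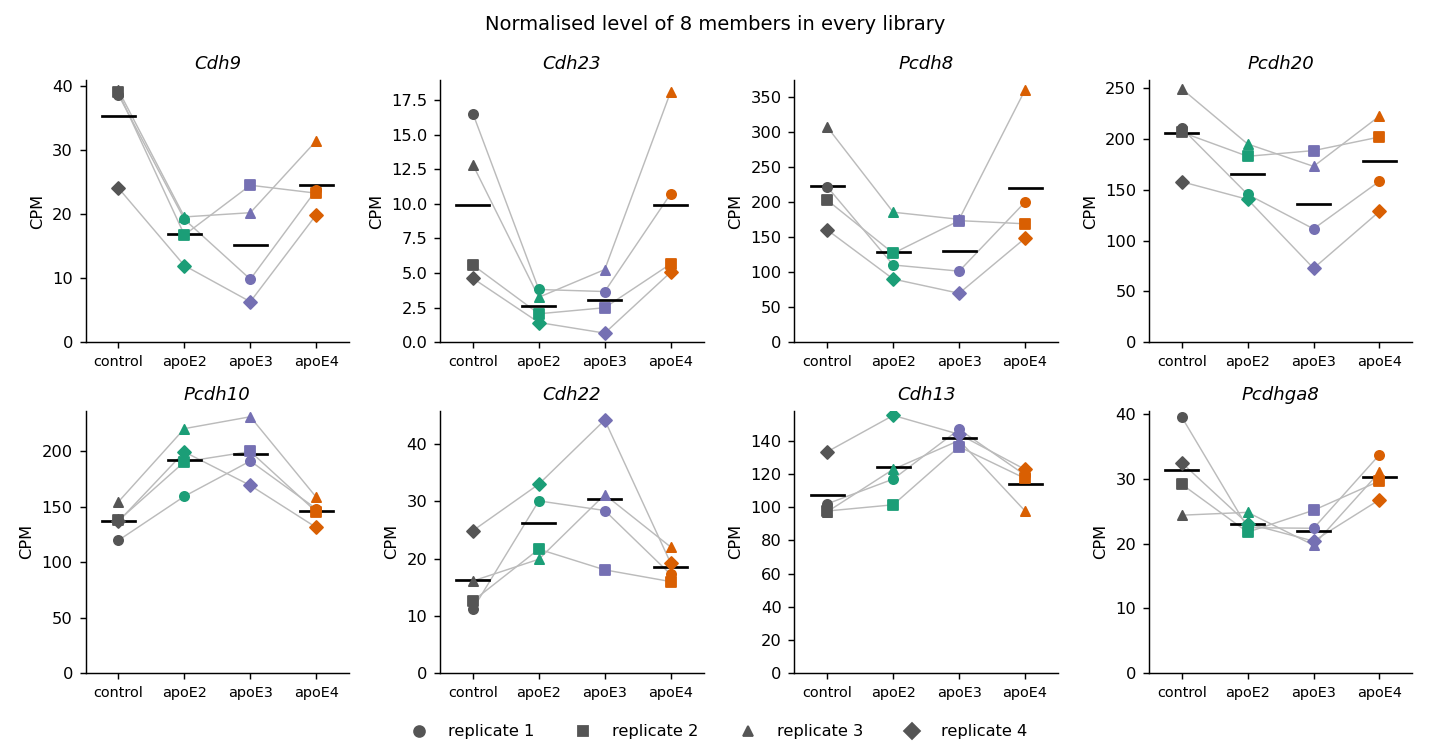
CPM of 8 members in each of the 16 libraries, by group; grey lines join libraries with the same replicate number, and black bars are group means. Cdh9, Cdh23 and Pcdh8 are lower and Pcdh10 is higher with apoE2 and apoE3 than in control within every replicate number.

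To show the sequence from which these 4 genes start, the bases before their annotated starts are printed 5′ to 3′ on the gene's strand, from RefSeq windows of build GRCm38.p6, the assembly that mm10 names. They were searched on both strands for the CCAAT box, the TATA element TATAAA, the GC box with letters GGGCGG, the cyclic AMP response element core TGACG and the E-box CANNTG. Matches, none overlapping another, are in capitals, and a CCAAT box on the other strand reads ATTGG, a GC box there CCGCCC. RefSeq windows were at hand for 22 of the 91 members, and for Cdh9 the printed stretch ends where the first annotated transcript begins. They are, in order, Cdh9 at chr15:16728665-16728755 (plus strand), Cdh23 at chr10:60696491-60696740 (minus), Pcdh8 at chr14:79771313-79771562 (minus) and Pcdh10 at chr3:45378148-45378397 (plus).
Cdh9: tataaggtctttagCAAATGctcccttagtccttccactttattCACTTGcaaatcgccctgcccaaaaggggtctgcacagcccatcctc
Cdh23: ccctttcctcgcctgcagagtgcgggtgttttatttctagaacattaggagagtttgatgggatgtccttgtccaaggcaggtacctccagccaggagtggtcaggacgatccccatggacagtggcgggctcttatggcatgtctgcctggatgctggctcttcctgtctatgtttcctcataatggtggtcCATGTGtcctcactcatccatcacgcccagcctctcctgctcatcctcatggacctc
Pcdh8: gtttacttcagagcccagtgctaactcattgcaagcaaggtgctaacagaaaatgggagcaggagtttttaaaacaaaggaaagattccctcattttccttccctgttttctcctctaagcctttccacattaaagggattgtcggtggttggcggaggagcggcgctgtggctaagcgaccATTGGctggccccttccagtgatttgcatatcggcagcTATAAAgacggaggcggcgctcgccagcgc
Pcdh10: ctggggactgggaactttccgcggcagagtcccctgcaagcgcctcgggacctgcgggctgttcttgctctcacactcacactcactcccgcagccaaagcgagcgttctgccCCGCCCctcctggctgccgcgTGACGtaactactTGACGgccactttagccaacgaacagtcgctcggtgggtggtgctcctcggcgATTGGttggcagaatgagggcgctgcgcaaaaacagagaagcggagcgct

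The Pcdh8 stretch held TATAAA starting 30 bases before the start and CCAAT starting 68 bases before it. The Pcdh10 stretch held CCAAT starting 50 bases before the start, GGGCGG at 137 and TGACG at 116 and 103. The Cdh9 stretch held CANNTG at 77 and 47 bases before its end, and Cdh23 held it at 57. Over 250 bases, CCAAT was present in 33.8% of the 32851 RefSeq windows, TATAAA in 12.4%, GGGCGG in 32.7%, TGACG in 17.8% and CANNTG in 66.2%; over the 91 bases shown for Cdh9, CANNTG was present in 33.6%. The matches are given as a description of the letters in these windows.

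Cdh22, Cdh13, Pcdhga8 and Pcdh20 were also called with apoE3. Cdh22, a type II cadherin, stood at 11.2, 12.6, 16.1 and 24.9 CPM in control, 30.1, 21.6, 19.9 and 33.0 CPM with apoE2, 28.4, 18.0, 31.2 and 44.2 CPM with apoE3, and 17.2, 15.98, 22.02 and 19.2 CPM with apoE4. It was higher than control within all 4 replicate numbers with apoE2 and apoE3, although the groups overlapped. Cdh22 had a log2 fold change of 0.69 ± 0.28 with apoE2 (blocked adjusted p of 0.0534 by edgeR) and 0.91 ± 0.28 with apoE3 (0.00538), against 0.20 ± 0.28 with apoE4.

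T-cadherin (Cdh13) stood at 102, 97.8, 97.3 and 134 CPM in control, 147, 137, 140.3 and 144 CPM with apoE3, and 119, 117, 97.7 and 123 CPM with apoE4, with apoE2 between 102 and 155 CPM. The apoE3 values all lay above the control and the apoE4 values. Cdh13 had a log2 fold change of 0.40 ± 0.13 with apoE3, with an edgeR adjusted p of 0.658 and a blocked one of 0.011, lost without control replicate 1 (0.0616), and 0.09 ± 0.13 with apoE4.

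Pcdhga8, the most abundant of the gamma A and B genes per kb, stood at 39.5, 29.2, 24.4 and 32.5 CPM in control, 22.5, 21.8, 24.8 and 23.1 CPM with apoE2, 22.4, 25.1, 19.8 and 20.4 CPM with apoE3, and 33.7, 29.7, 31.0 and 26.8 CPM with apoE4. The apoE2 and apoE3 values all lay below the apoE4 values and overlapped the lowest control value. The log2 fold change of Pcdhga8 was -0.45 ± 0.13 with apoE2 and -0.52 ± 0.13 with apoE3, and the latter was called in the blocked model (edgeR adjusted p of 0.0144). That call was lost without control replicate 1 or 4 or apoE3 replicate 1 or 4, with adjusted p-values of up to 0.076. Pcdhga8 shares 55.9% of its exon bases with neighbours. Pcdh20 ran from 158 to 249.5 CPM in control and from 72.8 to 189 CPM with apoE3, with a log2 fold change of -0.60 ± 0.26 and a blocked adjusted p of 0.00519.

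**Figure D4:**
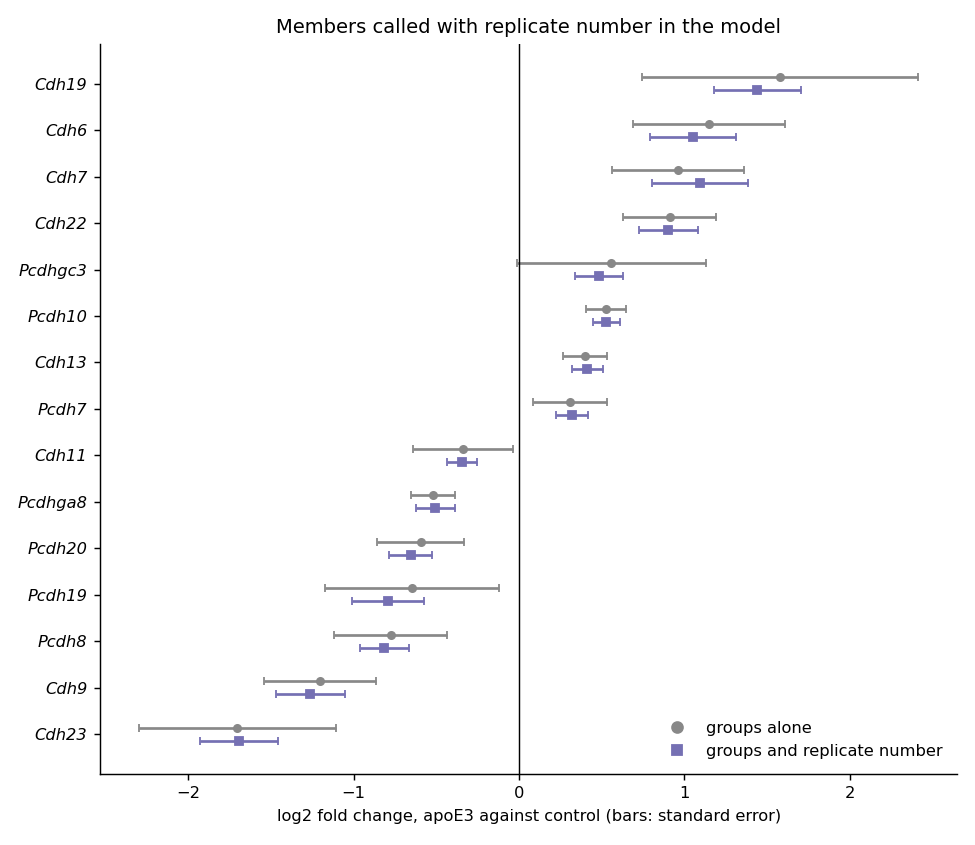
Log2 fold change with apoE3 against control for the 15 members called with the replicate number in the model, with bars of 1 standard error, from the model with the groups alone (grey circles) and with the replicate number added (purple squares). The estimates lie close together and the bars are shorter with the replicate number, as for Cdh19 at 0.84 against 0.26.

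Another set of members differed mainly between replicate numbers. Cdh19, a type II cadherin of the Schwann cell and neural crest lineage, stood at 2.09, 0.481, 1.53 and 3.67 CPM in control, 5.01, 1.11, 2.26 and 4.18 CPM with apoE2, 8.09, 1.10, 2.70 and 11.4 CPM with apoE3, and 5.22, 0.881, 2.54 and 11.7 CPM with apoE4. Replicates 1 and 4 were high and replicate 2 low in every group, and the groups overlapped. Cdh19 had a log2 fold change of 1.58 ± 0.84 with apoE3 and 1.39 ± 0.83 with apoE4, with edgeR adjusted p-values of 0.792 and 1.00. In the blocked model the adjusted p was 0.00341 with apoE3 and 0.0189 with apoE4, and the latter call was lost without control replicate 1 or 4 or apoE4 replicate 4 (up to 0.128). Differences between replicate numbers held 77.8% of the variance of its log2 CPM, and differences between groups held 16.8%.

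Pcdh18, a delta-2 protocadherin, had the same high numbers and was called with apoE4 in the blocked model, with a log2 fold change of 0.91 ± 0.49 and an edgeR adjusted p of 1.00, against 0.0203 with the block. It stood at 2.77, 2.01, 1.53 and 4.62 CPM in control and at 5.83, 2.59, 3.04 and 8.99 CPM with apoE4, higher within all 4 numbers, with overlap, and the call was lost without control replicate 1, 3 or 4 or apoE4 replicate 1, 3 or 4 (adjusted p of up to 0.107). Cdh6 stood at 1.32, 0.682, 0.801 and 1.21 CPM in control and at 2.37, 0.777, 1.67 and 4.16 CPM with apoE3. Cdh6 had a log2 fold change of 1.15 ± 0.46, 2.22-fold higher, with an edgeR adjusted p of 0.758 and a blocked one of 0.0172, lost without control replicate 1 or 4 or apoE3 replicate 4 (up to 0.0919). Its fold of at least 2 was lost without control replicate 2 or 3 or apoE3 replicate 4, down to a log2 fold change of 0.67. Pcdhgc3 stood at 36.0, 11.2, 19.0 and 39.7 CPM in control and at 44.5, 14.1, 23.1 and 74.4 CPM with apoE3, with 89.2% of its variance between replicate numbers, a log2 fold change of 0.56 ± 0.57 and a blocked adjusted p of 0.0433 by edgeR. This call held in 3 of the 16 fits that left out 1 library, with adjusted p-values of up to 0.216.

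Marker genes of other cells were also highest on average in replicates 1 and 4, as these 4 members were. The mean of the 10 mural and fibroblast markers, summed, was 224 CPM in replicate 1, 33.9 in replicate 2, 45.0 in replicate 3 and 380 in replicate 4, and that of the 10 astrocyte markers was 3357, 1513, 3108 and 4618 CPM. By group, the astrocyte sum ranged from 1425 to 3222 CPM in control, 1326 to 3214 with apoE2, 1715 to 6728 with apoE3 and 1586 to 5472 with apoE4. In the blocked model, beside 11.4% of all tested genes for apoE3 and 3.25% for apoE4, 9 of 10 astrocyte markers were higher with apoE3 and 4 of 10 with apoE4, and 3 of 10 mural and fibroblast markers were higher with each. Of 10 oligodendrocyte lineage markers, 5 were higher with apoE3 and 1 with apoE4, and of 6 tested endothelial markers 2 and 1. Cspg4, a called gene, is in both the mural and the oligodendrocyte lists. Of 9 tested ependymal and choroid plexus markers 2 were higher with apoE3 and 0 with apoE4, of 10 proliferation markers 1 and 0, and of 10 microglia markers 0 with either. The Schwann and neural crest markers, 10 in the files and 7 tested, summed to between 35.5 and 162 CPM in control, 63.2 and 260 CPM with apoE2, 93.2 and 402 CPM with apoE3 and 42.7 and 299 CPM with apoE4; 2 were higher with apoE3 and 2 with apoE4. With apoE2, where 1.72% of all tested genes were called, Ngfr of the Schwann and neural crest list and Top2a of the proliferation list were higher, and no other marker was called. Of 10 inhibitory neuron markers, 4 were lower and 1 higher with apoE3. Their sum ranged from 363 to 582 CPM in control, 280.4 to 567.4 with apoE2, 266 to 457 with apoE3 and 354.5 to 565.3 with apoE4. The 10 excitatory neuron markers, summed, had means of 2319, 2967, 3127 and 1356 CPM in replicates 1 to 4, and ranged from 1604 to 2967 CPM in control, 1831 to 3606 with apoE2, 929 to 2967 with apoE3 and 1058 to 3248 with apoE4. With apoE3, 8 of these 10 had a negative log2 fold change, and the 1 called in the blocked model, Slc17a6, was higher. The part of these cells in the member differences was not tested.

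**Figure D5:**
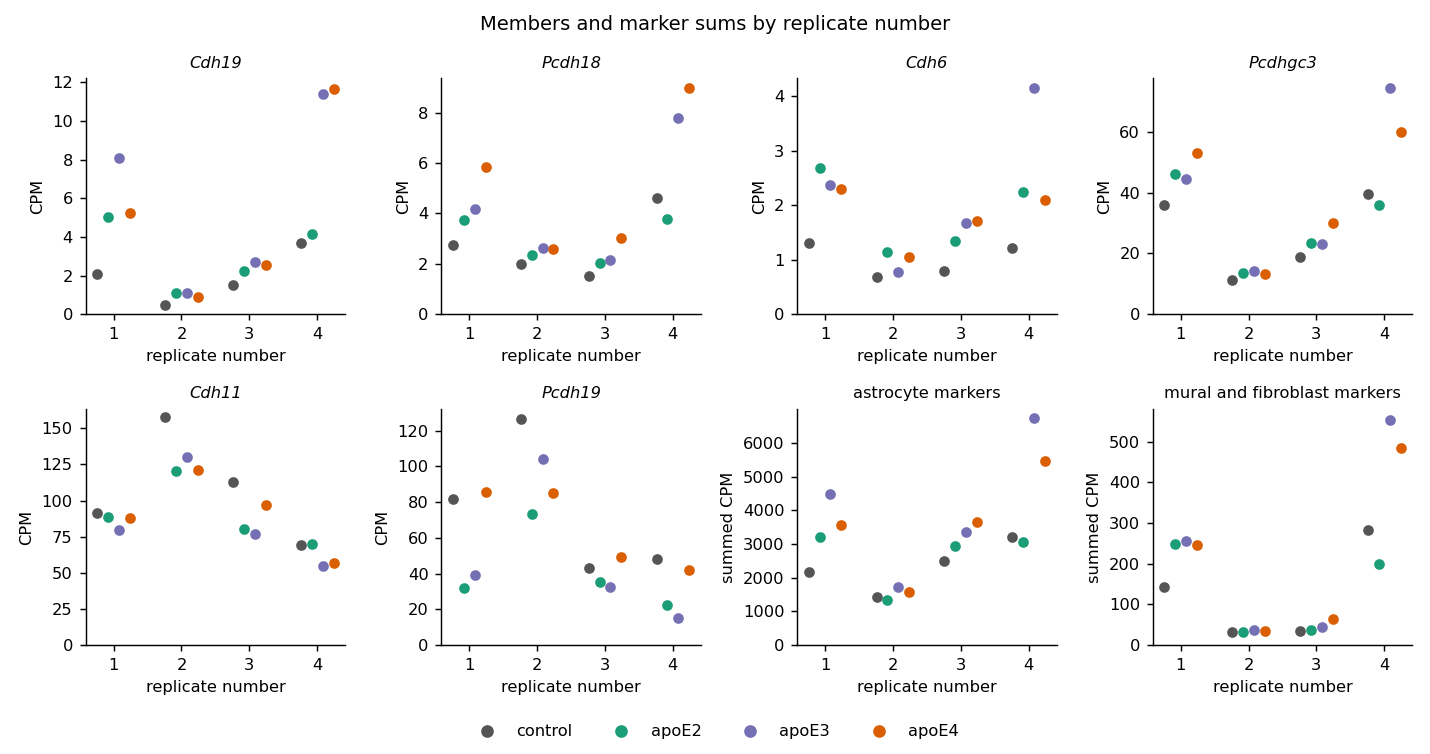
CPM of 6 members, and summed CPM of 10 astrocyte and 10 mural and fibroblast markers, by replicate number, with 1 point per library coloured by group. Cdh19, Pcdh18, Cdh6, Pcdhgc3 and both marker sums are lowest or near it in replicate 2 and high in replicate 4, and Cdh11 and Pcdh19 have their highest mean in replicate 2.

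Cdh11 and Pcdh19 had their highest mean in replicate 2 and their lowest in replicate 4, where the excitatory neuron markers were lowest too. Cdh11 stood at 91.5, 158, 113 and 69.1 CPM in control and at 79.4, 130.1, 76.7 and 54.9 CPM with apoE3. It was lower with apoE3 within all 4 numbers while the groups overlapped. Cdh11 had a log2 fold change of -0.34 ± 0.30, with a blocked adjusted p of 0.0281 by edgeR, lost without control replicate 2 or 3 or apoE3 replicate 1, 3 or 4 (up to 0.094). Pcdh19, a gene of the X chromosome whose human counterpart is mutated in an epilepsy syndrome, stood at 81.7, 126, 43.0 and 48.4 CPM in control and at 39.3, 104, 32.4 and 15.2 CPM with apoE3, with a log2 fold change of -0.65 ± 0.53 and a blocked adjusted p of 0.0294, lost without control replicate 1 or 4 or apoE3 replicate 1, 3 or 4 (up to 0.108). Cdh7 and Pcdh7 were the other members called with apoE3 in the blocked model. Cdh7 stood at 5.18, 4.97, 2.19 and 8.19 CPM in control and at 8.47, 15.8, 7.95 and 7.58 CPM with apoE3, with a log2 fold change of 0.96 ± 0.40 and a blocked adjusted p of 0.0248 by edgeR, lost without control replicate 1, 2 or 3 or apoE3 replicate 2 or 3 (up to 0.0916). Pcdh7 differed by 0.31 ± 0.22 on the log2 scale, with a blocked adjusted p of 0.0465 that held in 5 of the 16 fits leaving out 1 library, and 21.1% of its exon bases overlap another gene.

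Over all 82 members, the median share of the variance of log2 CPM between replicate numbers was 63.2%, against 55.5% over all tested genes, and the share between groups was 11.3% against 14.5%. Pcdhgc5 had 93.9% of its variance between numbers, with means of 49.3, 61.9, 85.4 and 31.1 CPM in replicates 1 to 4, the same order as the excitatory neuron markers. Pcdh1, with 82.4%, also had that order, and Cdh4 had 80.1%, with means of 27.7, 25.1, 56.6 and 29.6 CPM.

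The clustered genes had medians near that of all genes. The median log2 fold change of the 12 tested alpha genes was -0.02 for apoE2, -0.15 for apoE3 and -0.08 for apoE4, beside 0.01, 0.01 and 0.003 over all tested genes. That of the 22 beta genes was -0.08, 0.05 and 0.03, and single beta genes ranged from -0.29 to 0.14 with apoE2, from -0.22 to 0.34 with apoE3 and from -0.27 to 0.37 with apoE4. That of the 20 tested gamma genes was -0.02, 0.03 and 0.11. No alpha or beta gene was called in any of the 6 comparisons by edgeR in either model, where 0% to 0.225% of all tested genes were called with the groups alone and 1.29% to 11.4% with the block. At an unadjusted p under 0.05 with the groups alone there were 0 alpha and 0 beta genes in each comparison, beside 2.31% to 6.43% of all tested genes. Summed over the alpha genes, the level was 81.0 ± 14.4 CPM (SD, n = 4) in control, 81.6 ± 12.8 with apoE2, 82.8 ± 20.7 with apoE3 and 80.1 ± 16 with apoE4. Over all members, the sum was 2761 ± 324 CPM in control, 2641 ± 334 with apoE2, 2680 ± 470.0 with apoE3 and 2802 ± 398 with apoE4, differences smaller than the spread between libraries.

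Among members with the highest levels, N-cadherin differed by -0.12 ± 0.10 on the log2 scale with apoE2, 0.05 ± 0.10 with apoE3 and 0.05 ± 0.10 with apoE4. Pcdh1 (0.16, -0.23 and 0.17), Pcdh9 (0.08, -0.06 and -0.08), Pcdh17 (-0.003, -0.13 and -0.03) and Pcdhac2 (0.05, 0.20 and 0.09) were likewise not called in either model. Pcdhga6 and Pcdhga12, both gamma genes, had the smallest unadjusted edgeR p-values of the members with apoE4 when the model held the groups alone. Pcdhga6 differed by 0.31 ± 0.14 and Pcdhga12 by 0.36 ± 0.18 on the log2 scale, with edgeR adjusted p-values of 1.00 for both.

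The second question was how the isoforms differed from one another. With the groups alone, edgeR called 0 of 82 members at an adjusted p under 0.05 in each comparison between isoforms. Over all tested genes it called 0.144% for apoE4 against apoE3, 0.225% for apoE4 against apoE2 and 0% for apoE3 against apoE2. DESeq2 called 0 members in each, and its share over all tested genes was not worked out. At an unadjusted p under 0.05 there were 6 members for apoE4 against apoE3 (4.74% of all tested genes), 5 for apoE4 against apoE2 (5.27%) and 1 for apoE3 against apoE2 (2.31%). Cdh23 alone met the study's criterion, for apoE4 against apoE3 (1.34% of all tested genes) and against apoE2 (1.29%), and 0 members met it for apoE3 against apoE2 (0.733%). With the replicate number in the model, 3 members were called for apoE4 against apoE3 (1.73%), 5 for apoE4 against apoE2 (4.35%) and 1 for apoE3 against apoE2 (1.29%). Without apoE2 replicate 4 these blocked counts were 5, 5 and 0, and without apoE4 replicate 2 they were 3, 7 and 0. Over all 16 fits that each left out 1 library they ran from 1 to 8, from 4 to 8 and from 0 to 2. The share of all tested genes called was not worked out for the fits that left out 1 library. For apoE4 against apoE3 the count was 1 without apoE3 replicate 1 or 3 or apoE4 replicate 3 and 8 without apoE3 replicate 2, for apoE4 against apoE2 it was 8 without apoE3 replicate 4, and for apoE3 against apoE2 it was 0 in 11 of the 16 fits and 2 without apoE3 replicate 4.

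Cdh23 was 3.25-fold higher with apoE4 than with apoE3 and 3.77-fold higher than with apoE2, with log2 differences of 1.70 ± 0.60 and 1.91 ± 0.60 and edgeR adjusted p-values of 0.807 and 0.419, or 0.00221 and 0.000397 in the blocked model. Leaving out apoE4 replicate 3 brought the log2 difference against apoE3 to 1.23 and ended the study's criterion there, while the blocked calls held without any 1 library. Pcdh8 was higher with apoE4 by 0.75 ± 0.34 against apoE3 and by 0.77 ± 0.34 against apoE2 on the log2 scale, with blocked adjusted p-values of 0.0171 and 0.00857 by edgeR; the first was lost without replicate 1, 3 or 4 of apoE3 or of apoE4 (up to 0.105), the second held without any 1 library. Pcdh10 was lower with apoE4 by a log2 difference of -0.44 ± 0.12 against apoE3 and -0.40 ± 0.12 against apoE2, with blocked adjusted p-values of 0.0117 and 0.0108. The first was lost without apoE3 replicate 1 or 3 or apoE4 replicate 3 (up to 0.0775), the second without apoE4 replicate 3 or 4 (up to 0.0613). These 3 members were called against both isoforms, which share the apoE4 libraries.

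Cdh8, a type II cadherin of cortical and hippocampal circuits, stood at 70.8, 85.8, 71.1 and 75.5 CPM with apoE2 and at 54.9, 62.7, 54.3 and 35.4 CPM with apoE4, with 62.0, 71.2, 67.7 and 53.5 CPM in control. The apoE2 and apoE4 values did not overlap. The log2 difference of Cdh8 was -0.55 ± 0.17, with an edgeR adjusted p of 0.419 and a blocked one of 0.00671. The delta-1 protocadherin Pcdh11x stood at 76.5, 46.2, 189 and 117 CPM with apoE2, 145, 102, 286 and 129.7 CPM with apoE3 and 115, 84.5, 309 and 236 CPM with apoE4. It was lowest with apoE2 within every replicate number among these 3, while the groups overlapped. The log2 difference of Pcdh11x was 0.80 ± 0.53 for apoE4 and 0.63 ± 0.53 for apoE3, each against apoE2, with blocked adjusted p-values of 0.00841 and 0.0396 by edgeR, the second held in 5 of the 16 fits leaving out 1 library.

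Cdh9 stood between control and the other media with apoE4. Its log2 difference was 0.69 ± 0.34 against apoE3 and 0.55 ± 0.34 against apoE2, not called in either model (blocked edgeR adjusted p of 0.0938 and 0.165). For Pcdhga8, apoE4 against apoE3 gave 0.47 ± 0.13 with a blocked adjusted p of 0.0677, and for Cdh22 it gave -0.71 ± 0.28 with 0.0886. For Cdh13 it gave -0.31 ± 0.13 with 0.111. For apoE3 against apoE2, Cdh7 had the smallest unadjusted p of the members with the groups alone, at 0.86 ± 0.40. Its blocked edgeR adjusted p was 0.125, and Pcdh11x was the member called in the blocked model.

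The genes that work with cadherins were followed as 5 lists. With the groups alone, edgeR called 0 members of each list in each of the 6 comparisons, beside 0% to 0.225% of all tested genes. In the blocked model with apoE3, 3 of 11 tested catenins and plakophilins were called, beside 11.4% of all tested genes: Ctnna1 (alpha-catenin, which ties cadherins to actin) was higher by 1.05 ± 0.75 on the log2 scale with a blocked adjusted p of 0.00299, Jup (plakoglobin) was higher by 0.63 ± 0.22, and Pkp4 differed by -0.33 ± 0.17. Of 21 tested other members of the cadherin superfamily, 2 were higher and 3 lower: Fat1 was higher by 0.85 ± 0.67 with a blocked adjusted p of 0.00353, and Dchs2, Clstn1 and Clstn3 (calsyntenins, synaptic cadherin-like proteins) differed by -0.72, -0.30 and -0.31. Ret, the receptor kinase with cadherin-like domains, was the other higher one. Of 11 cadherin cleavage enzymes Mmp14 was higher, by 0.96 ± 0.72 with a blocked adjusted p of 0.0315. Of 13 cytoplasmic partners of protocadherins Abi2 and Nckap1, components of the WAVE complex that drives actin assembly, differed by -0.28 ± 0.17 and -0.27 ± 0.10. Ctnna1 stood at 60.2, 19.8, 36.3 and 108 CPM in control and at 141, 25.2, 62.0 and 235 CPM with apoE3. It was highest in replicates 1 and 4 of every group, as were Fat1 and Mmp14, the replicates in which the mural, fibroblast and astrocyte markers had their highest means. The part of those cells in these differences was not tested.

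With apoE4, Fat1 was the single gene of these lists called in the blocked model, at 0.77 ± 0.67 on the log2 scale and an edgeR adjusted p of 0.00806, and with apoE2 there were 0, beside 3.25% and 1.72% of all tested genes. Between isoforms, Dchs2 was higher with apoE4 than with apoE3 (0.70 ± 0.34, blocked adjusted p of 0.0463), and against apoE2 Arvcf and Celsr1 were higher and Abi1 was lower, with blocked adjusted p-values of 0.0469, 0.0423 and 0.0209 by edgeR, where 1.73% and 4.35% of all tested genes were called. None of the 12 chromatin regulators of the protocadherin cluster was called in either model in any of the 6 comparisons. Their summed level was 722 ± 27.9 CPM (SD, n = 4) in control, 706 ± 56.6 with apoE2, 705 ± 40.2 with apoE3 and 697 ± 83.3 with apoE4.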

How the data were processed

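RNA was measured in 16 libraries, 4 per group. The authors aligned ribosomal RNA-depleted reads to mm10 with STAR and deposited whole-number counts per gene made with HTSeq; the annotation release, strand setting and overlap mode are not given in the sources used here. Groups and replicate numbers came from the sample titles. Members and lists were chosen with earlier results of these data known. Named members were those leading in level, called in either model, with the 3 smallest p-values of a comparison, or Cdh6, Cdh9, Cdh19 and Cdh23. Counts were scaled by TMM and tested with edgeR 4.0.16 (R 4.3.3; quasi-likelihood, all 16 libraries in 1 fit, Benjamini-Hochberg adjustment within each of 6 comparisons) on 17331 genes with at least 10 counts in at least 4 libraries. DESeq2 1.42.0, other filters and scalings, single left-out libraries and a replicate block were alternatives, the left-out libraries with the block being added after seeing the data. The methods give 4 independent cultures per group and do not say that numbers share one, but every correlation between same-numbered libraries, of deviations from group means over all tested genes, was at least 0.346, so the numbers were taken as pairs. Those between different numbers ran from -0.73 to 0.556 and overlapped the values of replicate 1 (0.346 to 0.538) but not of replicates 2 to 4. The study's fold and p cutoffs were applied to edgeR's p, which is not the test the study used. The common dispersion was 0.132 without and 0.0178 with the block. Exon lengths came from GENCODE for GRCm38. Between 38.4% and 73.8% of deposited counts were not assigned to a single gene, ambiguous ones included. Totals of 14087723 to 34248172 counts on genes leave counting error that matters mainly for members with few counts.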

Additional observations from a re-analysis of the deposited data

Results flagged for a closer look

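In 100 groups of 4 libraries (25 named members in 4 groups), 4 libraries lay far from the other 3 of their group by Dixon's ratio, above its 95% critical value; chance marks about 1 in 20 groups. Cdh9 was at 24.1 CPM in control replicate 4, with the others between 38.6 and 39.4 CPM. Cdh13 was at 133.5 CPM in the same library, with the others between 97.3 and 102 CPM. Cdh7 was at 15.8 CPM in apoE3 replicate 2, with the others between 7.58 and 8.47 CPM. Cdh8 was at 45.6 CPM in apoE3 replicate 4, with the others between 69.0 and 71.8 CPM.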

How the results depend on the processing

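With the groups alone, the number of members called at an adjusted p under 0.05 was 0 in each of the 6 comparisons under DESeq2's size factors, no low-count filter, edgeR's own filter, DESeq2 itself, a fit of only the 2 groups compared, and each left-out library. With the replicate block the 3 control comparisons gave 4, 15 and 2 members for apoE2, apoE3 and apoE4, and there were 3 for apoE4 against apoE3, 5 for apoE4 against apoE2 and 1 for apoE3 against apoE2; leaving out 1 library as well gave 1 to 7, 8 to 16, 0 to 4, 1 to 8, 4 to 8 and 0 to 2. For apoE3 against control the blocked count was 12, 11 and 10 without control replicates 2, 3 and 4, 10, 12, 11 and 10 without apoE3 replicates 1 to 4, 13 without apoE2 replicate 2 or 3 or apoE4 replicate 2, 3 or 4, and 14 without apoE4 replicate 1. The study's criterion was met with the block by 5 members with apoE3 and 1 with apoE4, and by 3 for apoE4 against apoE2 with no low-count filter. Leaving out 1 library gave 1 to 4 with apoE2, 2 to 6 with apoE3 and 0 to 3 with apoE4 against control, 0 to 3 for apoE4 against apoE3, 1 to 3 for apoE4 against apoE2 and 0 to 1 for apoE3 against apoE2, and with the block as well 1 to 3, 4 to 7, 0 to 2, 1 to 2, 1 to 1 and 0 to 1. The cause of these changes was not tested. Apart from the replicate block with all libraries, members alone were counted under the alternatives, without the share of all tested genes called. Of 1444 values under an alternative, covering 38 pairs of a named member and a comparison, 0 changed direction. By edgeR, these pairs had an unadjusted p under 0.05 with the groups alone or an adjusted p under 0.05 with the block. Choosing them so in these same libraries favours a kept direction, so the 0 does not measure how steady the members are. Other pairs were not followed in this way, and Cdh26 for apoE4 against apoE3, which was not called, went from -0.009 to 0.19 on the log2 scale with the replicate block. By CPM alone, which does not divide by length, Pcdh1 ranked 1, Cdh2 ranked 2 and Pcdh7 ranked 3 among members, and Pcdh8 ranked 4 in place of 1. Counting error weighs most on the called members with few counts. Over the 16 libraries Cdh6 had 583 counts, Cdh19 1254, Pcdh18 1261, Cdh23 2248 and Cdh7 2503.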
